A study of Mus musculus with 39 samples.

Results

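The glucocorticoid receptor (GR) and the estrogen receptor (ER) were each mapped with their own ligand alone in 7438 mouse mammary cells, and the 2 sets of binding sites were compared. The GR list came from cells given 100 nM dexamethasone (Dex), and the ER list from cells given 100 nM estradiol (E2), both for 30 min. These are 2 of the 24 site lists used from the 39 samples of the series, and they were chosen by receptor, ligand and cell line, not by any measured value. They hold 12084 GR sites and 7136 ER sites, of 110608 sites in all 24 lists. Each row of a list is 1 called site in mouse build mm9.

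Both receptors are fusion proteins in these cells, GR with GFP and ER with Cherry, and their genes are switched on by withdrawing tetracycline on the day before the hormone. Both receptors are thus present in every group, whichever hormone was given. GR and ER were each precipitated with a mixture of antibodies to that receptor. The comparison therefore describes tagged receptors from regulated transgenes in 1 cell line. Cells called 7438 Afos here also express Afos from such a promoter, and their GR Dex and ER E2 lists, 2 replicates of each, served as further measurements. The labels do not say what Afos is. As background, A-Fos is a modified Fos that pairs with Jun proteins and prevents them from binding DNA. In 7438 each receptor had 1 list per treatment here, filed under replicate 1, and whether it pools replicates is not stated, so differences between the 2 lists have no replicate check, and the intervals given are exact (Clopper-Pearson) binomial 95% intervals that cover counting error only.

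GR and ER belong to the same family of nuclear receptors, which bind DNA through zinc fingers once a steroid has bound them. GR is known to prefer a palindromic glucocorticoid response element and ER an estrogen response element of another sequence. Both receptors are also found at open chromatin kept accessible by other factors, among them AP-1, the Jun and Fos family. Whether the 2 receptors meet at the same places when each has only its own ligand is the question this comparison addresses.

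Every site in both lists was 150 bp wide. Its strength is given by the highest tag density, the authors' measure of read pile-up in the site. Tag density ran from 10.0 to 759 in the GR list (median 20.9) and from 10.0 to 374 in the ER list (median 17.1). Its scaling is not stated, so strength was compared between lists only by rank. Sequencing depth is unknown, because the lists carry no read totals. The lists stop at a density of 10, and the weakest decile of each lies just above it (up to 11.6 for GR and 11.0 for ER), so a site absent from a list may lie just under that limit. In 7438 the lists filed under untreated and under both hormones carry names that contradict their labels. The GR Dex and ER E2 lists compared here have no such conflict.

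A minority of GR sites and of ER sites lay at a position where the other receptor was also called. Of 12084 GR sites, 1190 overlapped an ER site by at least 1 bp, which is 9.85% (interval 9.32 to 10.4%). Of 7136 ER sites, 1189 overlapped a GR site, which is 16.7% (15.8 to 17.5%). The overlapping sites formed 1191 pairs, with 1 GR site paired to 2 ER sites and 2 ER sites each paired to 2 GR sites. With equal numbers of sites (the 7136 strongest of each list) both shares were 11.6%. The overlapping sites are called shared sites here, and the 10894 GR and 5947 ER sites without an overlap are called GR alone and ER alone. The other receptor may still have bound there under the limit of its list.

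Within a pair the receptors sat close to the same point. The centres lay a median of 26 bp apart (interquartile range 11 to 55 bp), and 867 of the 1191 pairs (72.8%) were within 50 bp. The largest offset was 147 bp, close to the width of a site. Few further sites lay just outside this range: 256 GR alone and 248 ER alone sites had a centre of the other receptor within 500 bp.

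The share of GR sites that also carried ER was larger among stronger GR sites. GR sites were divided into 10 equal classes by highest tag density, called deciles, from the weakest (1) to the strongest (10). In the weakest decile, 58 of 1209 GR sites were shared (4.80%, interval 3.66 to 6.16%). In the fifth decile it was 103 of 1208 (8.53%), and in the strongest 190 of 1208 (15.7%, 13.7 to 17.9%), where tag density ran from 72.3 to 759. The share was higher in each stronger decile except that the fifth stood just under the fourth (8.61%) and the eighth and ninth were equal at 12.2%. The difference between the strongest and the weakest decile was 10.9 percentage points, and the intervals of these 2 deciles did not overlap. With GR sites ranked by the authors' z-score in place of tag density, the difference was 6.38 points.

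ER sites showed no such steady order. From the weakest to the ninth decile the share of ER sites with GR stayed between 14.0 and 18.0%, with intervals that overlapped one another. The strongest decile alone stood higher, with 163 of 713 ER sites shared (22.9%, 19.8 to 26.1%), against 114 of 714 in the weakest (16.0%, 13.4 to 18.9%). The difference was 6.89 points. It was 3.11 points when an overlap of at least 50% of each site was required, with an interval from -0.720 to 6.93 points.

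**Figure D1:**
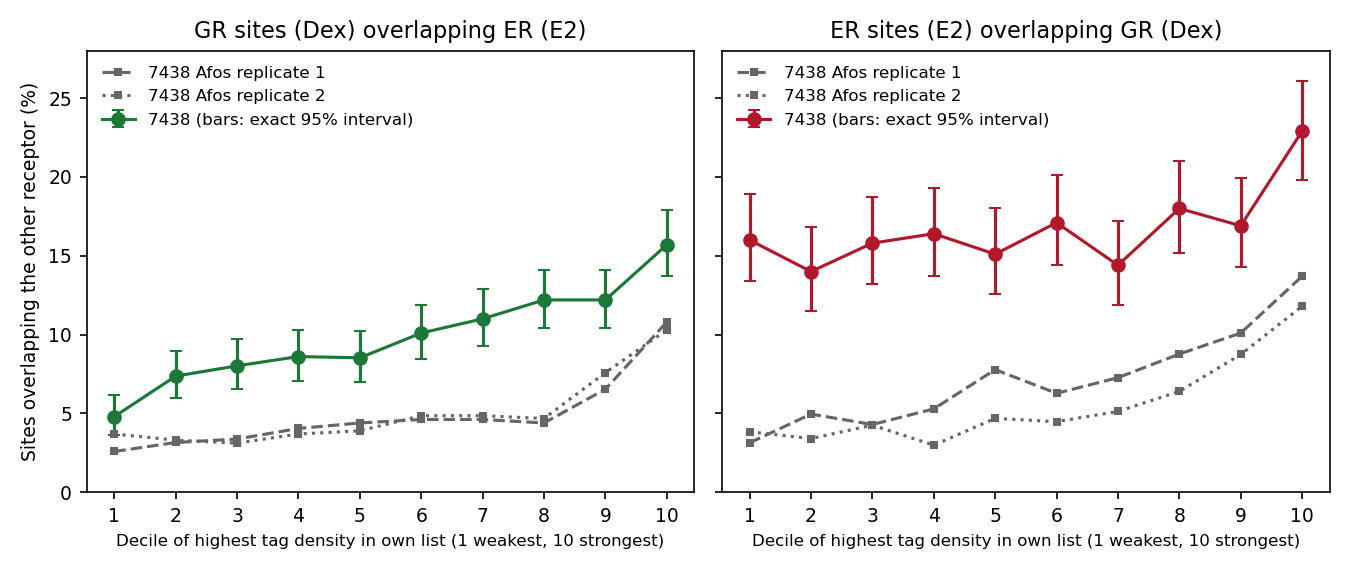
Share of sites that overlap the other receptor (y axis, %) by decile of the site's highest tag density in its own list (x axis), for GR sites with Dex (left, green) and ER sites with E2 (right, red) in 7438 cells, with exact 95% binomial intervals as bars; grey lines give the 2 replicate pairs of 7438 Afos. GR runs from 4.80% to 15.7% across the deciles, while ER stays between 14.0 and 18.0% until the strongest decile at 22.9%.

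In 7438 Afos cells the shares were lower, and for both receptors they were largest in the strongest decile. The same-numbered lists gave 431 of 8873 GR sites with ER in replicate 1 (4.86%) and 257 of 5136 in replicate 2 (5.00%), a mean of 4.93 ± 0.104% (SD, n = 2 pairs). For ER sites with GR it was 433 of 6046 (7.16%) and 261 of 4687 (5.57%), a mean of 6.37 ± 1.13%. All 4 values lie below those of 7438. Afos sites were wider (list medians from 568 to 598 bp), which makes an overlap easier. The Afos lists were also shorter, which leaves fewer sites to overlap. In 7438, sites at or above the median of both lists gave 6.80% for GR and 11.5% for ER. How much of the gap goes with list length was not tested. Reduced to 150 bp around their centres, Afos sites gave means of 3.38 ± 0.397% and 4.28 ± 0.380%. From the weakest to the strongest decile, the share of Afos GR sites with ER went from 2.59 to 10.8% in replicate 1 and from 3.70 to 10.3% in replicate 2. For Afos ER sites with GR it went from 3.14 to 13.7% and from 3.84 to 11.8%. The lists of the 2 lines hold sites of different widths, and the threshold of calling is not stated for either. The gap between the lines is thus given by value only.

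A strong GR site was only loosely tied to a strong ER site. Over the 1191 pairs the highest tag densities had a Spearman rank correlation of 0.08, given as a description, since the pairs share libraries and neighbourhoods. Of the 191 pairs whose GR site was in the strongest decile, 40 had an ER site in the strongest decile as well, and 16 had one in the weakest. Over all 1191 pairs, 163 had an ER site in the strongest decile and 114 had one in the weakest. The share with an ER site of the strongest decile was thus higher among those 191 pairs than over all pairs. In 270 pairs (22.7%) the percentile ranks in the 2 lists differed by more than 50 points. GR was the higher one in 171 of these and ER in 99.

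The strongest shared sites carried both receptors in 7438 Afos too. They were ranked by the lower of the percentile ranks in the 2 lists, and the first 5 are given. At the leading one, on chromosome 15 (51562421 to 51562571 in mm9), GR reached a tag density of 483 and ER 124, with centres 12 bp apart. On chromosome 6 a site (145959065 to 145959215) reached 298 for GR and 101 for ER, and another (31050400 to 31050550) reached 164 and 78.7. On chromosome 17 (34347546 to 34347696) ER was the higher by rank, at 320 against 217 for GR, with centres 1 bp apart. The other one lay on chromosome 4 (138788974 to 138789124), at 174 for GR and 112 for ER. Each of the 5 was present in both Afos GR Dex lists and in both Afos ER E2 lists. Among all shared sites of the strongest decile, 99.5 and 98.9% were in the Afos GR Dex lists (GR decile). For the Afos ER E2 lists it was 91.4 and 92.6% (ER decile). The sites on chromosomes 17 and 4 and the second one on chromosome 6 were also in the 7438 GR list with E2 alone, at 24.3, 13.8 and 33.1. Of all 1190 shared GR sites, 114 (9.58%) were in that list.

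The strongest site of each list had no overlapping site in the other of the 2 lists compared. GR alone was led by a site on chromosome 17 (28649867 to 28650017; highest tag density 759), the strongest of the whole GR list, whose nearest ER site lay 116 kb away. The next was on the same chromosome (56248206 to 56248356; 744), with an ER site 1.89 kb away. The others were on chromosome 11 (43771809 to 43771959; 623), chromosome 1 (159005227 to 159005377; 596) and chromosome 17 (84519033 to 84519183; 573), with ER at 24.7, 654 and 3.37 kb. All 5 were present in both Afos GR Dex lists and absent from both Afos ER E2 lists. So were most others: the Afos GR Dex lists held 99.8 and 99.1% of GR alone sites in the strongest decile. The Afos ER E2 lists held 1.23 and 1.00% of all GR alone sites. Of the 5, the one on chromosome 1 was also in the 7438 ER list with Dex, at 15.7.

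ER alone was led by a site on chromosome 11 (79592192 to 79592342; 374), the strongest of the ER list, with a GR site 1.29 kb away. Sites on chromosome 6 (66485018 to 66485168; 299, and 147073654 to 147073804; 291) followed, with GR 138 and 141 kb away. The others were on chromosome 12 (56566751 to 56566901; 285) and chromosome 7 (54364334 to 54364484; 264), with GR at 8.51 and 56.4 kb. All 5 were in both Afos ER E2 lists and in neither Afos GR Dex list. The Afos ER E2 lists held 97.3 and 96.5% of ER alone sites in the strongest decile. The Afos GR Dex lists held 2.82 and 1.46% of all ER alone sites. Of the 5, all but the one on chromosome 12 were also in the 7438 GR list with E2 alone, at densities from 17.0 to 42.2. These 4 sites were picked for having no GR site with Dex, so its absence there is part of the selection. Of all 5947 ER alone sites, 84 (1.41%) were in the 7438 GR list with E2 alone.

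ER sites stood nearer to GR sites than the reverse, in lists of unequal length. The median distance from an ER site to the nearest GR site was 16.1 kb, and from a GR site to the nearest ER site 42.7 kb. The GR list is the longer one, and with equal numbers (the 7136 strongest GR sites) the medians were 33.6 and 32.1 kb, so the difference between the directions was not present at equal list lengths. A site of the other receptor lay within 10 kb of 42.4% of ER sites (3025 of 7136) and 28.5% of GR sites (3448 of 12084). Without the shared sites the medians were 25.3 kb for ER and 55.6 kb for GR.

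Few sites of either receptor lay far from the other one, and the share was higher for GR. No ER site lay within 1 Mb of 596 GR sites (4.93%), and no GR site lay within 1 Mb of 19 ER sites (0.266%). With equal numbers of sites the shares were 4.26% for GR and 1.25% for ER. The 596 isolated GR sites had a median rank at percentile 43.3 of the list. Chromosome 2, with 938 GR sites, held 97 of them, and chromosome X held 75, which is 46.3% of its 162 GR sites. The strongest were on chromosome 16 (52094879 to 52095029; 513), chromosome 9 (51913637 to 51913787; 364) and chromosome 3 (142035510 to 142035660; 364), 1.57, 1.22 and 2.27 Mb from the nearest ER site. All 3 were in both Afos GR Dex lists, which held 99.8 and 99.1% of GR alone sites in the strongest decile. The strongest isolated ER sites were weaker, led by chromosome 14 (51607477 to 51607627; 56.6), which was in both Afos ER E2 lists. The next, on chromosome 3 (3000229 to 3000379; 44.3), was in 1 of them. The third lay on chromosome 7 (63368415 to 63368565; 35.4) and was in both. Of these 3, only the one on chromosome 14 was also in the 7438 GR list with E2 alone, at 13.6.

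**Figure D2:**
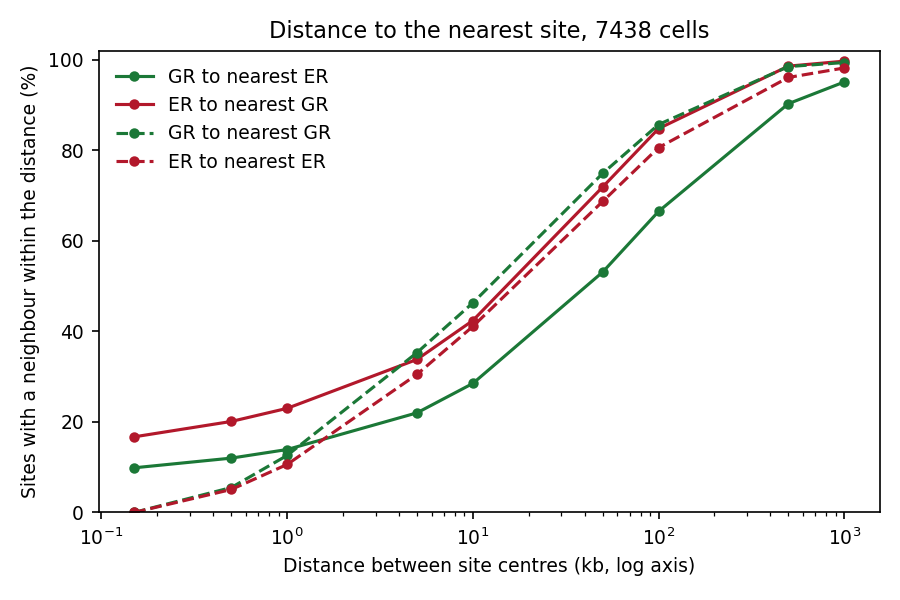
Share of sites (y axis, %) whose nearest neighbour lies within a distance between centres (x axis, kb, log scale) in 7438 cells. Solid lines give the distance to the other receptor and dashed lines to the next site of the same receptor; 42.4% of ER sites and 28.5% of GR sites have the other receptor within 10 kb, against 41.1% and 46.3% for their own receptor.

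Stronger sites of either receptor stood nearer to the other one, also where they did not overlap it. Among GR alone sites the median distance to ER went from 91.6 kb in the weakest decile to 29.8 kb in the strongest, and the share with ER within 10 kb went from 15.3 to 29.0%. Among ER alone sites the median distance to GR was 30.7 kb in the weakest decile and 15.5 kb in the strongest, and the share within 10 kb went from 26.8 to 41.5%. For ER most of this difference lay in the strongest deciles: the first 7 had medians between 24.9 and 30.7 kb.

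Many sites had a site of the other receptor as their closest neighbour, in shares that also depend on the list lengths. For 4181 of 12084 GR sites (34.6%) the nearest site of any kind was an ER site, and for 4061 of 7136 ER sites (56.9%) it was a GR site. Without the shared sites these shares were 27.5 and 48.3%. The nearest site of the same receptor lay at a median of 12.5 kb for GR and 17.8 kb for ER.

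The density of GR and ER pairs fell steeply outside the shared positions and then declined slowly. All pairs on the same chromosome were counted by the distance of their centres, and the count per kb is given relative to that at 500 to 1000 kb, where pairs were thinnest. Within 150 bp there were 1194 pairs, 69.0 times the far level. From 150 to 500 bp the ratio was 8.13, at 1 to 2 kb 4.66, at 5 to 10 kb 2.87 and at 50 to 100 kb 1.67. Pairs of 2 GR sites gave 11.1, 8.19, 3.89 and 1.85 at these same distances beyond 150 bp, and pairs of 2 ER sites gave 12.1, 7.04, 3.92 and 1.85. Sites of 1 list never overlap (the closest centres were 154 bp apart for GR and 152 bp for ER), so the innermost class exists only between receptors. At every distance between 150 bp and 500 kb the density of mixed pairs, relative to the far level, was below that of either same-receptor pair. Around the 6045 GR sites at or above the median tag density the ratio within 150 bp was 78.3, and around the 6039 below it 57.8.

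**Figure D3:**
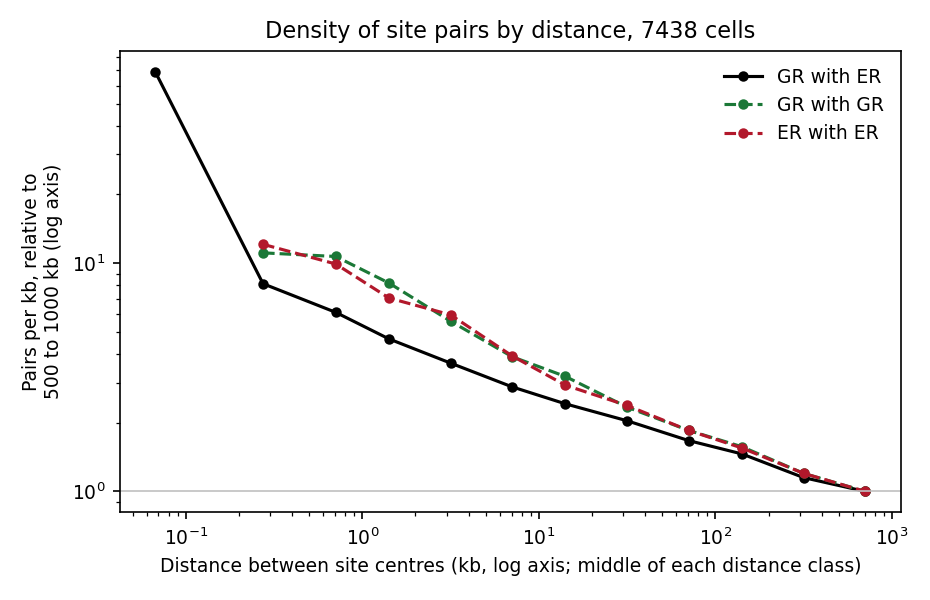
Number of site pairs per kb by the distance of their centres (x axis, kb, log scale), relative to the density at 500 to 1000 kb (y axis, log scale), for GR with ER (black), GR with GR (green) and ER with ER (red) in 7438 cells. Mixed pairs drop from 69.0 within 150 bp to 8.13 at 150 to 500 bp, and beyond that all 3 lines decline together with the mixed pairs lowest.

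Clustering was common in both lists, with a larger share for GR in lists of unequal length. Sites of a list were joined while neighbouring centres lay within 10 kb. Clusters of 3 or more held 21.7% of GR sites (2624 of 12084, in 711 clusters) and 16.9% of ER sites (1208 of 7136, in 333 clusters). With the 7136 strongest GR sites the GR share was 18.3% (17.5 to 19.3%), and its interval overlapped that of ER (16.1 to 17.8%). Sites with no neighbour of their own receptor within 10 kb made up 53.7% of the GR list and 58.9% of the ER list. Strong sites were clustered more often: 35.6% of the strongest GR decile against 11.0% of the weakest, and 26.1% against 11.8% for ER. In 7438 Afos, clusters of 3 or more held 9.65 and 6.29% of GR sites and 8.29 and 6.61% of ER sites in the 2 replicates, from shorter lists of wider sites.

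Clustered GR sites carried ER more often than lone ones. ER was present at 369 of 2624 clustered GR sites (14.1%, 12.8 to 15.5%) and at 501 of 6490 lone ones (7.72%, 7.08 to 8.40%). The same order held among GR sites below the median tag density (10.9 against 5.96%) and among those at or above it (15.9 against 9.98%). For ER the gap was smaller, with GR at 247 of 1208 clustered ER sites (20.4%, 18.2 to 22.8%) and at 643 of 4202 lone ones (15.3%, 14.2 to 16.4%).

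When both lists were joined, most clusters held both receptors, a share for which no reference value was computed. There were 1621 joined clusters of 3 or more sites, of which 1185 (73.1%) held both, 335 held GR only and 101 held ER only. A shared site counts here once for each receptor, so with any neighbour within 10 kb it makes a mixed cluster by definition. Clusters drawn from 2 lists of these lengths would often be mixed in any case, and larger ones more often. These shares are therefore given as a description. In 707 of the 1185 mixed clusters a shared site was present, and in 478 the receptors were near each other without one. Of 415 clusters with 5 or more sites, 369 were mixed. The largest, on chromosome 1 (74034532 to 74094138), spanned 59.6 kb with 14 GR and 8 ER sites, 3 of each shared, and reached a tag density of 605 for GR and 94.2 for ER. Next came 2 on chromosome 2. The first (125748092 to 125774063) held 9 GR and 5 ER sites. The other (27745017 to 27786282) held 5 GR and 8 ER sites and is 1 of 5 mixed clusters with 13 sites.

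Some dense groups held 1 receptor only in the 2 lists compared. The largest GR-only cluster was on chromosome X (137040447 to 137079538), with 11 GR sites over 39.1 kb and a tag density up to 116. There were 3 GR-only clusters of 9 sites, and the 2 named here by the rule lay on chromosome 4 (62996462 to 63023458) and chromosome 17 (28649867 to 28659145), the latter holding the strongest GR site of the list. The largest ER-only cluster was on chromosome 7 (71218352 to 71235619), with 13 ER sites over 17.3 kb and densities up to 28.2. It was followed by 11 ER sites on chromosome 17 (3010223 to 3037624; up to 30.2) and 8 on chromosome 16 (3232258 to 3241198; up to 72.2). All 6 regions held sites of their own receptor, and none of the other, in both replicates of the matching Afos lists. The Afos counts were 9 and 8 GR sites on chromosome X, and 13 and 7 ER sites in the chromosome 7 region.

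Both receptors were spread over all 19 autosomes and chromosome X, in proportions that were alike for 10 of the 20 chromosomes. The share of the GR list on a chromosome was divided by the share of the ER list, and this ratio lay between 0.9 and 1.1 for 10 chromosomes. The intervals of the 2 shares did not overlap for 5: chromosomes 11 and 17, where ER had the larger share, and chromosomes 3, 13 and X, where GR had it. Chromosome 11 held 680 ER sites (9.53%, 8.86 to 10.2%) and 806 GR sites (6.67%, 6.23 to 7.13%), a ratio of 0.700. It was the densest chromosome for both receptors, with 5.72 ER and 6.78 GR sites per Mb of the span covered by all lists. Chromosome X was the thinnest, with 36 ER sites (0.504%, 0.354 to 0.698%) and 162 GR sites (1.34%, 1.14 to 1.56%), a ratio of 2.66. The ratio was 0.809 for chromosome 17, 1.24 for chromosome 3 and 1.46 for chromosome 13.

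The 7438 Afos lists gave these 5 chromosomes on the same side. The Afos ratios in replicates 1 and 2 were 0.745 and 0.711 for chromosome 11, 0.806 and 0.864 for chromosome 17, 1.23 and 1.18 for chromosome 3, and 1.34 and 1.45 for chromosome 13. Chromosome X stood at 1.79 and 1.63, lower than in 7438. Over all 20 chromosomes 15 kept their side of 1 in both replicates, and the 5 that did not (7, 9, 12, 14 and 19) had 7438 ratios between 0.951 and 1.03.

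**Figure D4:**
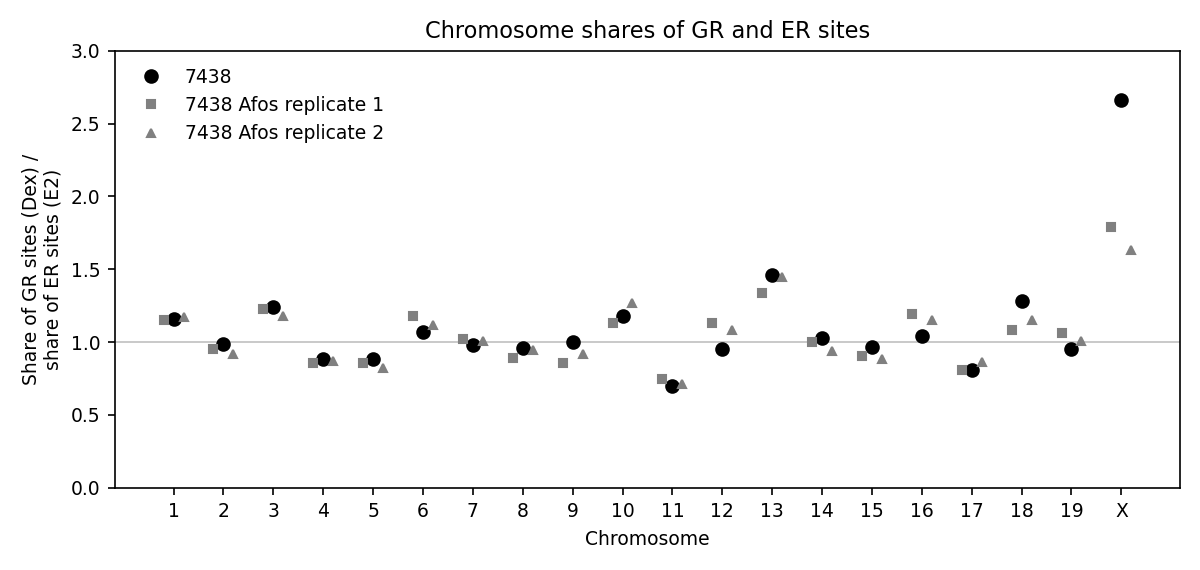
Share of GR sites (Dex) on each chromosome divided by the share of ER sites (E2), for 7438 (black) and the 2 replicate pairs of 7438 Afos (grey); a value of 1 (line) means equal shares. Chromosome X (2.66 in 7438) and chromosome 13 (1.46) are the highest and chromosome 11 (0.700) the lowest, on the same side in both Afos replicates.

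The share of overlapping sites also varied by chromosome. Of GR sites, between 2.47% (chromosome X, 4 of 162) and 13.3% (chromosome 11, 107 of 806; interval 11.0 to 15.8%) were shared. Of ER sites it was between 11.1% (chromosome X, 4 of 36; 3.11 to 26.1%) and 22.4% (chromosome 13, 55 of 245; 17.4 to 28.2%). On chromosome 7 both shares were low, at 6.92% of GR sites (5.14 to 9.07%) and 11.5% of ER sites (8.61 to 15.0%). The median distance from a GR site to ER was 23.2 kb on chromosome 11 and 917 kb on chromosome X.

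In windows of 1 Mb the receptors were found together more often than apart, a count for which no reference value was computed. With lists of these lengths, windows of this size would often hold both receptors in any case. Of 2586 windows of 1 Mb, 1318 (51.0%) held both receptors, 456 held GR only, 78 held ER only and 734 held neither. Site numbers per window had a Spearman rank correlation of 0.77 over the 2586 windows, given as a description, since neighbouring windows share sites of the same clusters and all come from the same 2 lists. There were 447 windows with 10 or more GR sites, of which 11 held no ER site. The densest of the 11 was on chromosome X, with 21 GR sites. None of the 223 windows with 10 or more ER sites was without GR. No reference value was computed for these counts either, and they are given as a description.

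Shared sites were called less often in the matching Afos lists than GR alone or ER alone sites. Whether the difference itself differs between GR and ER was not tested. These Afos lists were not used to define the classes. Of all 7136 ER sites of 7438, 57.9% overlapped the Afos ER E2 list of replicate 1 and 51.5% that of replicate 2. Of the 1189 shared ER sites 30.0% and 30.6% did (30.3 ± 0.416%, SD, n = 2 lists), and of the 5947 ER alone sites 63.5% and 55.6% (59.6 ± 5.58%). The difference was -29.2 percentage points and the values of the 2 classes did not overlap (two-sided exact permutation test over lists, p = 0.333, the smallest that 2 lists against 2 allow). Both classes were scored in the same lists, and paired within a list the difference was -33.5 points in replicate 1 and -25.0 in replicate 2 (paired exact permutation test, p = 0.5, the smallest that 2 pairs allow). For GR, 59.8 and 40.3% of all 12084 sites were in the Afos GR Dex lists of replicates 1 and 2. The shared GR sites gave 53.9 and 35.8% (44.9 ± 12.8%) and GR alone 60.5 and 40.8% (50.6 ± 13.9%). The mean difference of -5.75 points was smaller than the spread between lists (exact permutation test, p = 0.667). Within lists it was -6.52 and -4.98 points, of the same sign in both (-5.75 ± 1.09, n = 2; paired exact permutation test, p = 0.5, the smallest possible).

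The lower ER share was present at every level of site strength. Strong sites were found in Afos more often than weak ones, so the classes were also compared within each decile of the 7438 list, a comparison chosen after the data were examined. In the weakest ER decile 5.26% and 2.63% of shared sites were found in replicates 1 and 2, against 37.8 and 27.0% of ER alone sites. In the sixth decile the values were 20.5 and 16.4% against 61.7 and 54.7%, and in the ninth 47.9 and 52.1% against 87.4 and 86.5%. In the strongest they drew together, at 91.4 and 92.6% against 97.3 and 96.5%. Shared ER sites were lower in 10 of 10 deciles in both replicates, by between 3.91 and 47.1 points. Shared GR sites were also lower in 10 of 10 deciles in both replicates, by between 0.330 and 26.2 points in replicate 1 and between 0.169 and 31.2 points in replicate 2. In the strongest GR decile nearly every site of either class was found, at 98.9% or more.

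**Figure D5:**
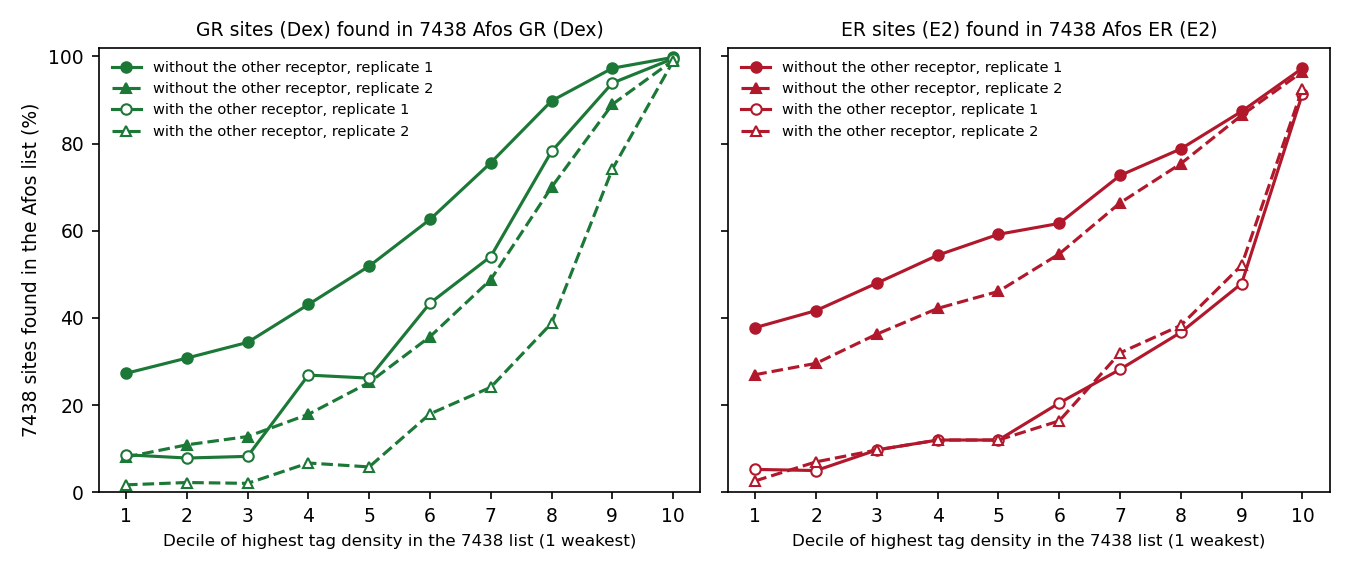
Share of 7438 sites found in the matching 7438 Afos list (y axis, %) by decile of highest tag density in the 7438 list (x axis), for GR with Dex (left) and ER with E2 (right). Filled symbols are sites without and open symbols sites with the other receptor in 7438; circles and triangles are Afos replicates 1 and 2. Open symbols lie below filled ones of the same replicate in every decile, and the widest gap is 47.1 points, for ER in replicate 1.

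Most shared sites were listed with at most 1 of the receptors in Afos cells. Of the 1190 shared GR sites, 238 (20.0%) carried both receptors in replicate 1 and 165 (13.9%) in replicate 2. GR only was called at 404 and 261, ER only at 119 and 197, and neither at 429 and 567. With both hormones in Afos cells, shared GR sites were found more often than GR alone sites, at 69.7 ± 5.11% against 60.5 ± 0.753% of the GR lists (exact permutation test, p = 0.333, the smallest possible). Within lists the difference was 6.11 and 12.3 points (paired exact permutation test, p = 0.5, the smallest possible). Shared ER sites were found at 32.9 ± 7.37% and ER alone sites at 35.0 ± 14.3% of the ER lists (exact permutation test, p = 1). Within lists that difference changed sign, at -7.02 and 2.80 points (paired exact permutation test, p = 1).

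Shared sites were found in the short 7438 lists more often than GR alone or ER alone sites. The 7438 lists of GR with E2 and of both receptors labelled Dex+E2 are short, with 326, 143 (GR) and 373 (ER) sites. Of all GR sites 3.38% were in at least 1 of these 3 lists, and of all ER sites 5.20%. Among shared sites it was 250 of 1190 for GR (21.0%, 18.7 to 23.4%) and 252 of 1189 for ER (21.2%, 18.9 to 23.6%). Among GR alone and ER alone sites it was 1.46 and 2.00%. Without all sites in these lists, 8.03% of GR sites and 13.8% of ER sites were shared, and the shares of shared and ER alone sites found in Afos ER E2 lists were 30.7 and 59.4%.

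The ER list with Dex, which names ER without its ligand, had little in common with either list. It held 10149 sites, more than the ER list with E2, and overlapped 1.94% of GR sites and 1.26% of ER sites. The share was 6.22% of shared GR sites (74 of 1190; 4.91 to 7.74%) and 1.48% of GR alone sites (1.26 to 1.72%). Of ER alone sites 0.471% were in it. In Afos cells the ER lists with Dex held 61 and 41 sites. The name of the 7438 list matches its label, but whether its sites are those of ER with Dex could not be settled, and these shares carry that doubt. The ER list labelled untreated, whose name says both hormones, held 92.9% of shared GR sites and 17.5% of GR alone sites. The GR list labelled untreated, with the same conflict, held 94.7% of shared ER sites and 20.2% of ER alone sites. Shared sites carry a site of the other receptor by definition, and alone sites were chosen for lacking one. Both contrasts are therefore partly built into the classes. When the GR sites in the GR list labelled untreated and the ER sites in the ER list so labelled were removed, 0.319% of the remaining GR sites and 1.67% of the remaining ER sites were shared. This removal took 63.7% of all GR sites and 88.3% of all ER sites. How far the shorter lists account for the lower shares was not tested. ER alone sites were in that ER list nearly as often as shared ones, at 87.3 and 93.2%, and GR alone sites were in that GR list less often, at 60.3 against 95%.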

How the data were processed

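Chromatin immunoprecipitation with sequencing of GR and ER was deposited by the authors as lists of called sites. Each site's tag density (highest and average) is the authors' signal value, and its z-score is the authors' score, per the file headers. The p-value columns in the deposited Afos lists were not used. Build mm9 and CASAVA 1.8 are named in the submitters' processing notes. No source used here gives the aligner, caller, threshold or scaling, and no read totals were used, so depth is unknown. Lists were grouped by treatment label.

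Overlap (at least 1 bp), distances between centres, deciles of highest tag density, clusters (gaps up to 10 kb, 3 or more sites) and chromosome shares were computed with Python 3.11.15, NumPy 2.4.6, SciPy 1.17.1 and pandas 2.3.3, and drawn with matplotlib 3.10.9. The functions were tested on simulated data. Named sites were the 5 shared sites with the highest lower rank, the 5 strongest alone in each list, the 3 strongest over 1 Mb away and the 3 largest clusters of each kind, with ties broken by genome order. The members, lists and comparisons were chosen with earlier results of these data known. Exact permutation tests, unpaired and paired within a list, compared site classes over the 2 Afos replicate lists, whose p-values measure only the spread between these samples. Alternatives changed the overlap rule, ranking, list lengths, cluster gap and lists left out. Genes and sequences at the sites were not analysed here, since the reference tables used a build other than mm9.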

Additional observations from a re-analysis of the deposited data

How the results depend on the processing

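Of the values recomputed under other settings, 32 moved beyond their interval or replicate SD, 30 did not and 0 changed sign. Some of the 30 could not have moved. With 2 replicates, leaving out 1 always stays within the SD. A replicate block leaves a mean difference unchanged, and equal numbers leave the share of clustered ER sites unchanged. Percentages, distances and ratios cannot change sign, so the count of sign changes bears only on the differences. The share of GR sites with ER (9.85%) was 8.37% with a 50% reciprocal overlap, 12.0% with centres within 500 bp, 6.80% for sites at or above the median of both lists, 11.6% with equal numbers, 0.319% without sites in the list labelled untreated, 8.44% without those in the list labelled Dex+E2 and 8.03% without the 3 short lists. The share of ER sites with GR (16.7%) was 14.2, 20.1, 11.5, 11.6, 1.67, 14.5 and 13.8% under the same settings. The GR difference between deciles (10.9 points) was 6.38 points by z-score and 8.14 points without the short lists. The ER difference ranged from 3.11 to 9.56 points. The median distance was 55.6 kb (GR) and 25.3 kb (ER) without overlapping sites, 32.1 and 33.6 kb with equal numbers, and 88.5 and 36.8 kb for sites at or above the median. The share over 1 Mb from the other receptor was 4.26% (GR) and 1.25% (ER) with equal numbers. The clustered share was 12.3% (GR) and 9.60% (ER) with gaps up to 5 kb and 56.5 and 48.3% up to 50 kb, and for GR 18.3% with equal numbers. In Afos, the overlap means were 3.38% (GR) and 4.28% (ER) with sites of 150 bp, and 4.59% for GR with centres within 500 bp.

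Leaving out 1 Afos replicate gave 4.86 to 5.00% for GR, 5.57 to 7.16% for ER, 30.0 to 30.6% for shared ER sites and 55.6 to 63.5% for ER alone sites. The settings without the 3 short lists, with Afos sites of 150 bp or centres within 500 bp, with the centre inside the Afos site, with the replicate block and with equal numbers for the share over 1 Mb were chosen after seeing the data, as were the leave-one-out values of the shared and ER alone sites. With a replicate block, pairing the classes within each Afos list, the mean differences between shared and alone sites are unchanged by arithmetic. They were -29.2 (ER with E2), -5.75 (GR with Dex), 9.19 (GR with both hormones) and -2.11 points (ER with both hormones). The paired exact permutation p was 0.5, 0.5, 0.5 and 1, where 0.5 is the smallest possible. Between the single 7438 lists no pairing exists. The lists stop at a tag density of 10, so a site missing from one may lie just under that limit.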

Other observations

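With both hormones in Afos cells, some regions with 1 receptor in the 7438 single-ligand lists held both. The GR-only cluster on chromosome X held 3 ER sites in each replicate, and the one on chromosome 17 that starts at 28649867 held 2 and 1. The ER-only cluster on chromosome 7 held 9 and 2 GR sites, and the one on chromosome 16 held 4 GR sites in each. With E2 alone the Afos GR lists already held 2 and 0 sites in this chromosome 7 region. In the chromosome 16 region they held 4 and 0. The GR-only cluster on chromosome 4 held 0 ER sites in each, and the ER-only cluster on chromosome 17 held 0 GR sites in each. Of all ER sites of 7438, 38.0 and 28.1% overlapped the Afos GR lists with both hormones in replicates 1 and 2, against 11.3 and 7.20% for the Afos GR lists with Dex. For ER alone sites it was 32.4 and 19.0% against 2.82 and 1.46%, but these sites were chosen for having no GR site with Dex in 7438, which favours a low share in the Dex lists. The Afos GR lists with E2 alone, of 490 and 146 sites, overlapped 6.40 and 1.72% of all ER sites. Of all GR sites, 12.1 and 6.18% overlapped the Afos ER lists with both hormones, against 4.06 and 3.90% for those with E2. For GR alone sites, chosen for having no ER site with E2, it was 9.24 and 3.85% against 1.23 and 1.00%. The Afos GR lists with both hormones were longer than those with Dex (14160 and 10309 against 8873 and 5136 sites), and the ER lists with both hormones were shorter than those with E2 (5905 and 2564 against 6046 and 4687 sites).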
